A study of Mus musculus with 2 samples.

Results

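The set described here holds 8 collagen genes outside the fibrillar class, Col6a1, Col6a2, Col6a3, Col8a1, Col12a1, Col14a1, Col15a1 and Col16a1, taken by gene name from the 44291 genes measured. All 8 were found. The set was chosen by its FPKM in these same libraries, since the collagen VI chains had been seen to be lower in one of them. The differences between the libraries are therefore given as a description without a test. The 2 RNA-seq libraries came from fibro-adipogenic progenitors (FAPs) in primary culture, mouse muscle cells of mesenchymal origin that can give rise to fat cells and matrix-producing fibroblasts. One library was made from FAPs given platelet-rich plasma (PRP) and the other from vehicle-treated controls, and both were then kept in adipogenic induction medium with insulin at 10 µg/ml, dexamethasone at 0.25 µM, IBMX at 0.5 mM and 20% FBS. By the labels the treatment was PRP. For its transcriptome the study's text names exosomes from the PRP of young human donors, and the names PRP and control follow the labels.

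Both libraries were from wild-type cells, sorted from the hind limb muscles of C57BL/6 mice that were bought at 6 to 8 weeks of age. How many mice or cultures stood behind a library, and the time in induction medium before RNA extraction, are not given in the sources used here. With 1 library per group, no difference below has a replicate check, and each compares 2 libraries rather than the treatments. Levels are FPKM, read numbers per length of exon and per assigned reads in all. Assigned reads numbered 40120843 with PRP and 34139741 in the control. Genes with a mean of 1 FPKM or more over both libraries are called expressed. The intervals given with levels and ratios are 95% intervals of counting error, computed on recovered fragments. They take no account of PCR duplicates or of the spread between cultures.

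Collagen VI is a heterotrimer of the chains encoded by Col6a1, Col6a2 and Col6a3, which assembles into beaded microfilaments around cells and basement membranes. In skeletal muscle it is made chiefly by interstitial fibroblastic cells, forms part of the niche of muscle stem cells, and its loss causes Bethlem myopathy and Ullrich congenital muscular dystrophy. Collagens XII, XIV and XVI, encoded by Col12a1, Col14a1 and Col16a1, are fibril-associated collagens with interrupted triple helices (FACIT), which lie on the surface of fibrils and link them to other matrix. Col8a1 encodes a chain of the network-forming collagen VIII of vessel walls and Descemet's membrane, and Col15a1 encodes a multiplexin that connects basement membranes with the fibrils beside them. Neither of the last named is a FACIT collagen.

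The 3 collagen VI genes lie at 2 loci. In GENCODE M21 (GRCm38), Col6a1 (ENSMUSG00000001119) spans chr10:76708792-76726168 and Col6a2 (ENSMUSG00000020241) spans chr10:76595762-76623630, both on the minus strand and 85162 bases apart. Col6a3 (ENSMUSG00000048126) lies on another chromosome, at chr1:90765923-90843971 on the minus strand. Because the collagen VI chains were lower together, the 250 bases before the start site that RefSeq gives each of them (build GRCm38.p6) are shown 5′ to 3′. Capitals mark matches, on either strand, to 5 short motifs. They are the TATA box with the letters TATAAA, the CCAAT box, the GC box with the letters GGGCGG, the purine run GGGAGG and the AP-1 site with the letters TGANTCA.
Col6a1 (chr10:76726045-76726294, minus strand): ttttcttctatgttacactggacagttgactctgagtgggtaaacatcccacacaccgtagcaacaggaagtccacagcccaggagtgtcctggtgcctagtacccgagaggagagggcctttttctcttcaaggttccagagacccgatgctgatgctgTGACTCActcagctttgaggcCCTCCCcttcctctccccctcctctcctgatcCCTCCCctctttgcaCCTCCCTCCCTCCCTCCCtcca
Col6a2 (chr10:76623631-76623880, minus strand): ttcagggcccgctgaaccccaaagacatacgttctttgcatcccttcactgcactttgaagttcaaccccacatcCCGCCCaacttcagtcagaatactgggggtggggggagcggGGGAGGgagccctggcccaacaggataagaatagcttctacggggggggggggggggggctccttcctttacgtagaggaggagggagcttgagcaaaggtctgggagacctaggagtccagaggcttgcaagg
Col6a3 (chr1:90843972-90844221, minus strand): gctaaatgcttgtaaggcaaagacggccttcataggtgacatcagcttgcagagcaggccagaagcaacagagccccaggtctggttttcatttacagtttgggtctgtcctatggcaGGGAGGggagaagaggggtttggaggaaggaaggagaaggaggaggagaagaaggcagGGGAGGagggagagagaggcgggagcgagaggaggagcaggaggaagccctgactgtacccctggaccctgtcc

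GGGAGG, or CCTCCC when read on the other strand, was the motif present before the RefSeq start of all 3 collagen VI genes. The Col6a1 window held 6 matches to it, of which the last 4 overlapped in a run of CCTCCC repeats that ended just before the start site. The Col6a2 window held 1 match and the Col6a3 window held 2. Among 32851 RefSeq windows of the same length, 37.99% held this motif. Among the members' windows, the AP-1 letters occurred in that of Col6a1 alone, at position -90 from the start site, and in 6.75% of all windows. TATAAA was in none of the 6 members' windows that RefSeq gave, and in 12.4% of all. The GC box was found before Col6a2 (1 match), Col8a1 (4 matches) and Col16a1 (1 match), against 32.7% of all windows, and CCAAT before Col16a1, against 33.8%. The 3 collagen VI windows had 56.0%, 59.2% and 57.2% G and C, above the median of 52.4% over all windows, while that of Col16a1 had 75.6%. RefSeq and GENCODE place the starts of Col6a2 and Col6a3 at the same base, and differ by 124 bases for Col6a1. GENCODE has the earlier Col6a1 start, so the last 124 bases of that window lie inside the gene as GENCODE draws it. All 6 GGGAGG matches and the AP-1 match of Col6a1 fall in those bases, after the GENCODE start. No match to one motif overlapped a match to another. These are matches of letters, and binding was not measured.

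The study names let-7f-5p and miR-16-5p as RNAs carried by the exosomes. Their mouse sequences in RefSeq are shown with the seed, bases 2 to 8, in capitals, since a target would hold the reverse complement of the seed.
mmu-let-7f-5p: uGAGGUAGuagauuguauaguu
mmu-miR-16-5p: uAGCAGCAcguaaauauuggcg

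The longest 3′UTR of 7 members in GENCODE M21 was searched for the 7-base seed matches, CTACCTC for let-7f and TGCTGCT for miR-16. None of the 3 collagen VI genes held either match, in 3′UTRs of 767 bases (Col6a1), 1763 bases (Col6a2) and 732 bases (Col6a3). Among expressed genes with 3′UTRs whose length differed by at most 25%, 5.26%, 11.6% and 4.96% held the let-7f match, and 14.2%, 29.3% and 13.8% held the miR-16 match, so most genes of such lengths lack them. Col8a1, Col15a1 and Col16a1 had no match to either. Of expressed genes of like length 13.4%, 6.23% and 1.22% held the let-7f match, and 39.0%, 16.1% and 4.53% the miR-16 match. Col14a1, with only 16 reads with PRP and 18 in the control, held no miR-16 match (14.5% of like genes did). It held 1 let-7f match, as did 5.48% of like genes, shown in capitals with the bases around it.
Col14a1 (chr15:55520448-55520477, plus strand): cactgaggaaaCTACCTCctacttgtttaa

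The levels of these genes spanned a wide range, and the order was nearly the same in both libraries. In the control library the order from the highest FPKM was Col6a3, Col12a1, Col6a1, Col16a1, Col8a1, Col6a2, Col15a1 and Col14a1. In the PRP library Col12a1 stood first and Col6a3 second, and the other genes kept their places. No 2 genes next to each other in either order had overlapping counting intervals, but the spread between cultures, against which such an order would have to be judged, was not measured. Expressed as defined above were 6 of the 8 genes, and 13401 of all genes. Col14a1 and Col15a1 were not.

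**Figure D1:**
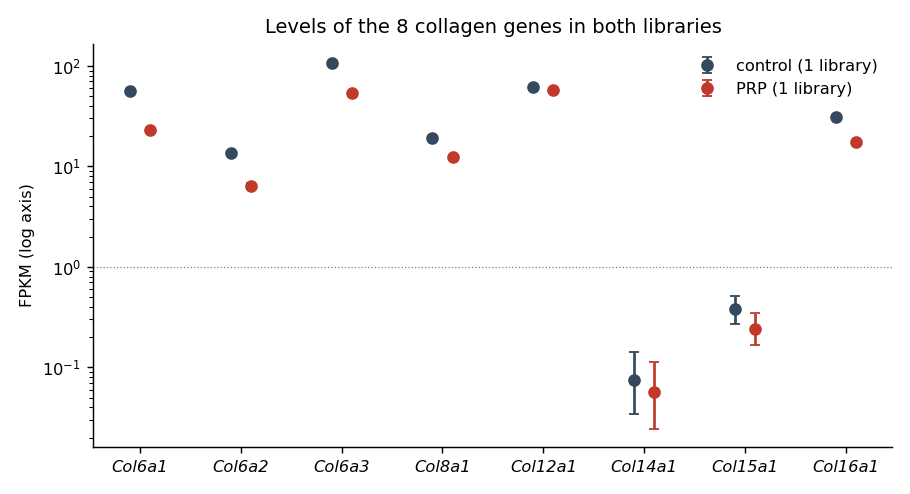
FPKM (log axis) of each of the 8 genes in the control library (dark blue) and the PRP library (red), with exact Poisson 95% intervals of counting error, which are smaller than the points for the 6 abundant genes. For 6 genes the pair lies above the dotted line at 1 FPKM with the PRP point below the control point, while Col14a1 and Col15a1 lie under it with overlapping intervals.

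All 6 expressed genes of the set were lower with PRP, a direction that 49.1% of all 13401 genes shared. Because these genes were chosen with this contrast in view, the count is not read as a result. Their fold changes, given as log2(PRP FPKM + 1) minus log2(control FPKM + 1), had a median of -0.90, beside 0.01 over all genes. By that measure 1 of the 6, Col6a1, was at least 2-fold lower, against 0.828% of all genes. Bringing both libraries to the same summed FPKM made that count 3, as Col6a2 and Col6a3 then passed, while the genes at least 2-fold lower rose from 111 to 216 of all 13401. That scaling also enlarges the values relative to the pseudocount. In the values as deposited, 5 of the 6 were at least 1.5-fold lower, against 4.57%. None of them was higher by either fold, while 2.00% of all genes were at least 2-fold higher and 6.15% at least 1.5-fold higher, and 2.83% were at least 2-fold changed in one direction or the other. Deep sequencing makes even small ratios distinct from 1 when counting error alone is considered. The interval of the ratio lay below 1 for 6 of 6 members and for 26.1% of the 12369 genes with an interval, and it lay above 1 for 26.1%. In RNA from a whole culture, fewer cells of the kind that makes a transcript and less of it per cell cannot be told apart.

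Col6a1 had the lowest fold change of the set. It encodes a short chain of collagen VI that is required for the trimer to form. Its level was 23.1 FPKM (interval 22.1 to 24.1) with PRP and 55.9 FPKM (54.2 to 57.6) in the control, from 4058 and 8363 reads over 4380 bases of exon. The FPKM ratio of PRP to control was 0.413 (0.391 to 0.435), a level 2.42-fold lower, with a log2 fold change of -1.24. Only 0.395% of all 13401 genes had a lower fold change.

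Col6a2 encodes the other short chain and was the least abundant of the 3. It stood at 6.38 FPKM with PRP and 13.6 FPKM in the control, from 2132 and 3865 reads. Its ratio of 0.469 (0.435 to 0.506) was a level 2.13-fold lower, and its log2 fold change was -0.98. The pseudocount draws the fold change of low genes towards 0, which is why Col6a2 was over 2-fold lower as a plain ratio and short of 2-fold on the log2(FPKM + 1) scale. The exon length assigned to Col6a2, 8326 bases, is far above the 4653 bases of its longest protein-coding transcript, so its FPKM is low relative to the other chains. The ratio between libraries does not depend on that length.

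Col6a3 encodes the long chain, which carries most of the von Willebrand factor A domains of the molecule and, at its end, the fragment endotrophin that fat tissue releases. It was the most abundant member in the control library, at 107.3 FPKM (105.8 to 108.7), and stood at 53.8 FPKM (52.9 to 54.7) in the PRP library. With 25813 and 43808 reads its ratio was the most precise of the 3, at 0.501 (0.491 to 0.512), a log2 fold change of -0.98. On this scale Col6a2 and Col6a3 had the same fold change to 2 decimals, but that match depends on the pseudocount. Without a pseudocount their log2 ratios were -1.09 and -0.996.

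**Figure D2:**
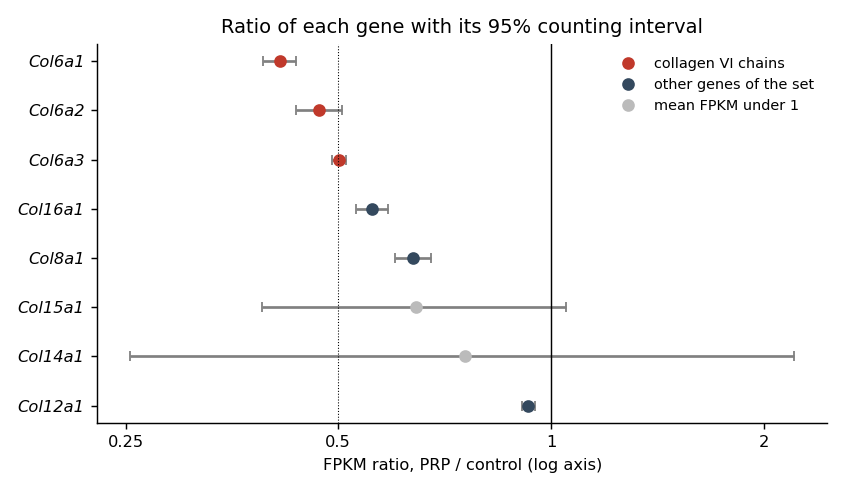
FPKM ratio of PRP to control (log axis) for each of the 8 genes, with exact Clopper-Pearson 95% intervals of counting error from 1 library per group. The collagen VI chains (red) sit at 0.413 to 0.501 around the dotted line at a ratio of 0.5, Col12a1 sits nearest to 1 at 0.929, and the intervals of the scarce Col14a1 and Col15a1 (grey) cross 1.

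The collagen VI chains were not lower by the same factor within the limits of counting. Per unit of Col6a3, the FPKM of Col6a1 was 0.429 with PRP and 0.521 in the control, so the ratio of these ratios was 0.824 (0.778 to 0.872). Per unit of Col6a2, Col6a1 was likewise lower in the PRP library, with a ratio of ratios of 0.880 (0.803 to 0.964). Col6a2 per unit of Col6a3 had a ratio of ratios of 0.936 (0.866 to 1.01), an interval that includes 1. As shares of their summed FPKM, Col6a1 made up 27.7% of the collagen VI transcripts with PRP and 31.6% in the control. Col6a3 made up 64.6% and 60.7%, and Col6a2 made up 7.67% and 7.69%. The protein holds the chains in equal numbers, and the transcripts in both libraries did not.

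**Figure D3:**
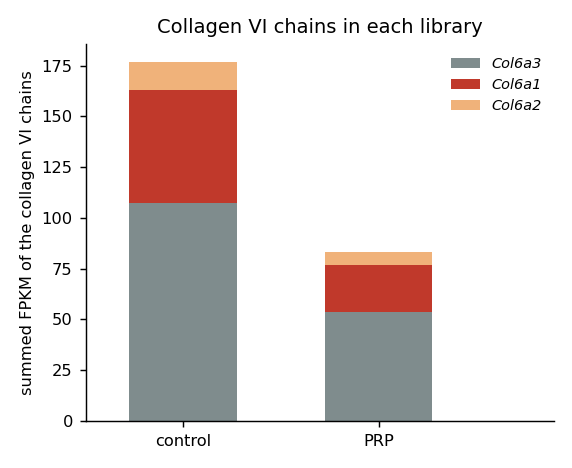
Summed FPKM of the 3 collagen VI chains in the control and PRP libraries (1 library each, bars from 0), split into Col6a3 (grey), Col6a1 (red) and Col6a2 (orange). The sum is 176.8 in the control library and 83.3 in the PRP library, with Col6a3 as the largest block of both bars.

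Together the 3 chains held 0.0521% of the summed FPKM of the control library and 0.0243% of that of the PRP library. All 8 genes of the set held 0.0854% and 0.0498%. The remaining chains of the collagen VI family, Col6a4, Col6a5 and Col6a6, which can take the place of the long chain, had at most 0.0996 FPKM in either library, so the long chain was almost wholly Col6a3 at the transcript level.

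Of the 2 expressed FACIT genes of the set, Col16a1 differed more than Col12a1. Col16a1 (ENSMUSG00000040690, chr4:130047840-130099283, plus strand) encodes the chain of collagen XVI, which in other tissues associates with fibrils and with fibrillin microfibrils. It was at 17.3 FPKM (16.7 to 18.1) with PRP and 31.1 FPKM (30.1 to 32.1) in the control, a ratio of 0.558 (0.529 to 0.588) and a log2 fold change of -0.81. A lower fold change was found for 1.98% of all genes.

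Col12a1 (ENSMUSG00000032332, chr9:79598991-79718831, minus strand) encodes collagen XII, a FACIT of tendon, fascia and the muscle interstitium whose loss also causes a myopathy. It was nearly level between the libraries. It stood at 57.5 FPKM (56.7 to 58.4) with PRP and at 61.9 FPKM (60.98 to 62.9) in the control, with 35159 and 32199 reads. Its ratio was 0.929 (0.909 to 0.949) and its log2 fold change -0.10, with 34.99% of all genes lower.

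Measured per unit of Col12a1, every other abundant gene of the set was lower in the PRP library. Col12a1 had the highest ratio of the abundant members, at 0.929, so this direction follows from the choice of reference. It is not a further result. The ratio of ratios was 0.444 (0.420 to 0.471) for Col6a1, 0.505 (0.467 to 0.546) for Col6a2 and 0.540 (0.523 to 0.556) for Col6a3. For Col16a1 it was 0.600 (0.567 to 0.635) and for Col8a1 it was 0.686 (0.644 to 0.730). Such within-library ratios do not depend on how the libraries were scaled.

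Col8a1 (ENSMUSG00000068196, chr16:57624258-57754737, minus strand) lay between them. It was at 12.3 FPKM (11.8 to 12.9) with PRP and 19.4 FPKM (18.6 to 20.1) in the control. Its ratio was 0.637 (0.601 to 0.676) and its log2 fold change -0.61, a level 1.57-fold lower. The 3 abundant members outside collagen VI had a median log2 fold change of -0.61, and the 3 collagen VI chains one of -0.98.

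Col15a1 (ENSMUSG00000028339, chr4:47208161-47313167, plus strand) and Col14a1 (ENSMUSG00000022371, chr15:55307750-55520803, plus strand) were close to the limit of detection. Col15a1 had 0.243 FPKM (0.165 to 0.345) from 62 reads with PRP and 0.378 FPKM (0.271 to 0.513) from 82 reads in the control, a ratio of 0.643 (0.390 to 1.05). Of its exon bases, 0.221% overlap a gene on the opposite strand, Gm12426. Col14a1, a FACIT that marks several fibroblast populations, had 0.0569 FPKM from 16 reads with PRP and 0.0752 FPKM from 18 reads in the control. Its ratio of 0.756 had an interval of 0.254 to 2.21. For Col14a1 a difference was not detectable at this depth. For Col15a1 that depends on counting fragments, since the interval from read numbers, which treats the mates of a pair as independent, was 0.455 to 0.906.

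**Figure D4:**
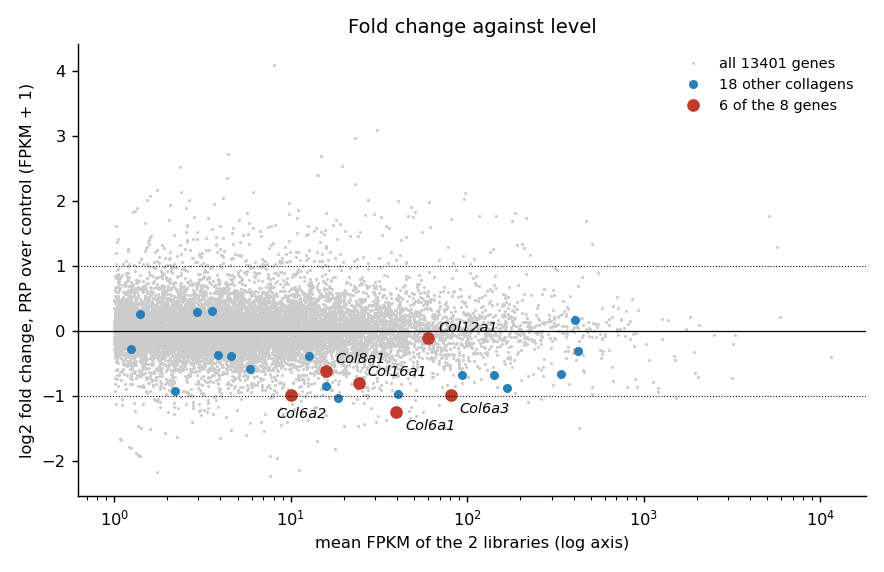
Log2 fold change, PRP over control on the FPKM + 1 scale, against the mean FPKM of the libraries (log axis) for the 13401 expressed genes (grey), the 18 other collagens among them (blue) and the 6 abundant genes of the set (red). Of the collagen VI chains, Col6a1 lies beyond the dotted line at -1, and Col6a2 and Col6a3 lie just short of it. At their levels the grey cloud is centred on 0, and Col12a1 lies close to 0.

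The files held 36 further collagen genes, of which 18 were expressed. Of these, 14 were lower and 4 were higher with PRP, while 49.1% of all expressed genes were lower. Their fold changes had a median of -0.49. A fold change at least 2-fold lower was found for 1 of them, and at least 1.5-fold lower for 8. Over all expressed genes these shares were 0.828% and 4.57%. The lowest were Col28a1 (11.8 against 25.2 FPKM, -1.04), which encodes a collagen with von Willebrand factor A domains like those of collagen VI, Col3a1 (26.9 against 53.7 FPKM, -0.97), the chain of fibrillar collagen III, and Col24a1 (1.22 against 3.23 FPKM, -0.93). Col6a1 was the lowest of all 24 expressed collagen genes on the log2(FPKM + 1) scale. As a plain ratio Col24a1 was lower, at 0.378 against 0.413 for Col6a1. The highest were Col20a1 (4.09 against 3.11 FPKM, 0.31), Col11a2 (3.35 against 2.55 FPKM, 0.29) and Col9a3 (1.62 against 1.19 FPKM, 0.26). Col20a1 and Col9a3 are FACIT collagens, so FACIT genes stood on both sides of 0. The other 18 collagen genes were not expressed as defined above, with fold changes on both sides of 0. Among them the FACIT gene Col22a1 had 0.693 against 0.108 FPKM, from 256 and 34 reads, a ratio of 6.41 (3.85 to 11.3). The 10 fibrillar collagens had a median of -0.67 with 8 lower, and the 4 collagens of basement membranes and anchoring fibrils were all lower with a median of -0.37. Summed over all 44 collagen genes, the share of FPKM was 0.475% with PRP and 0.653% in the control.

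**Figure D5:**
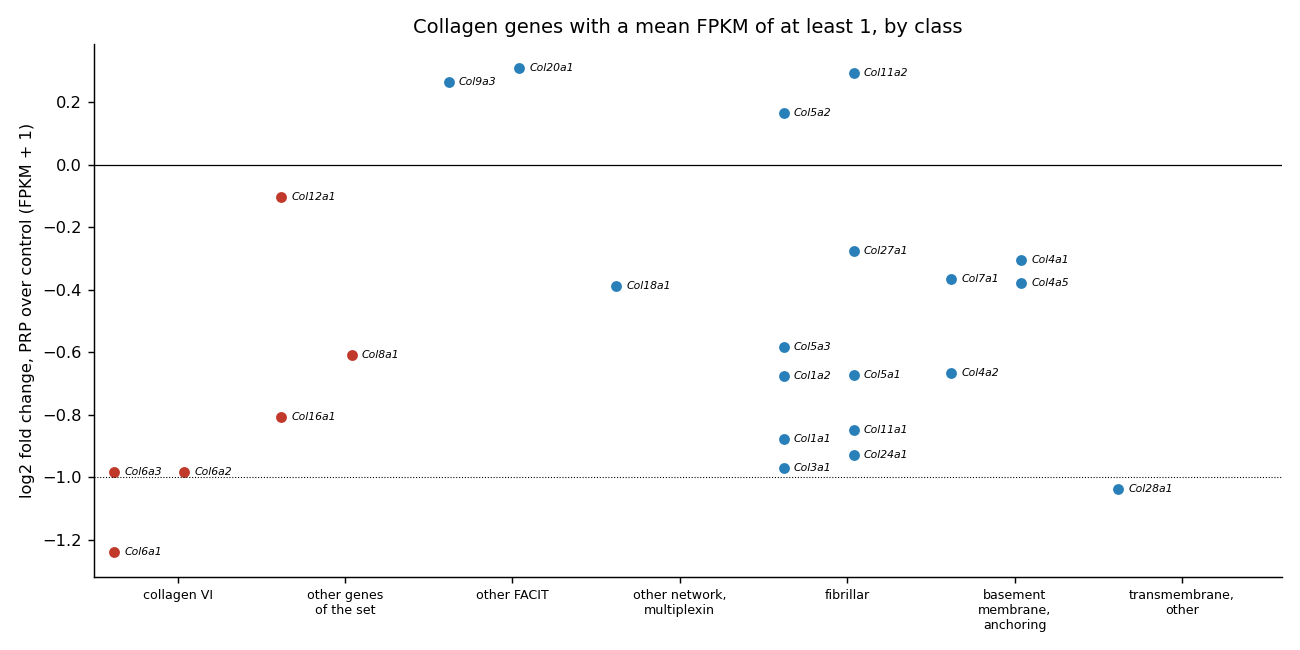
Log2 fold change, PRP over control on the FPKM + 1 scale, for the 24 expressed collagen genes, arranged by class, with the genes of the set in red and the others in blue (1 library per group). Of the 24 points 20 lie below 0, Col6a1 is the lowest on this scale at -1.24, and the 2 other FACIT genes lie above 0.

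Collagen VI chains are hydroxylated, glycosylated, folded and exported by enzymes and carriers that all collagens share. Of 15 such genes, all of them expressed, 14 were lower and 1 was higher, and the median log2 fold change was -0.26. The interval of the ratio lay below 1 for 11 of the 14 that had one, and 49.1% of all expressed genes were lower. The lowest were Sec23a, a coat protein of the vesicles that carry procollagen out of the endoplasmic reticulum, at 5.93 FPKM with PRP and 14.9 FPKM in the control (-1.20), and Plod2, a lysyl hydroxylase, at 9.99 and 14.5 FPKM (-0.50). The highest were Ppib, a prolyl isomerase (0.04), and Plod3, the lysyl hydroxylase that also glycosylates collagens (-0.04). Sec23a was the 1 gene of this list at least 2-fold lower, against 0.828% of all expressed genes.

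Of 9 receptors and surface partners of collagen VI, 5 were expressed and all 5 were lower, with a median log2 fold change of -0.11. The interval of the ratio lay below 1 for 3 of them, and 49.1% of all expressed genes were lower. The other 4 fell below the expression threshold. Of these, Itga1 was higher with PRP, at a ratio of 1.31 (1.06 to 1.62) from 462 and 300 reads. Itga2 (1.13) and Itga10 (1.10) had intervals that include 1, and Lair1 had 2 reads in each library. The collagen-binding integrin gene Itga11 stood apart, at 4.29 FPKM with PRP and 13.4 FPKM in the control, a ratio of 0.321 (0.287 to 0.358). The anthrax toxin receptor genes differed little in comparison. Antxr1, whose product also binds the endotrophin part of collagen VI, had a ratio of 0.844 (0.793 to 0.899), and Antxr2, which takes up collagen VI, had one of 0.930 (0.862 to 1.003). Itgb1, the shared beta chain of the integrins, had a ratio of 0.966 (0.946 to 0.986).

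Of 13 matrix proteins that bind collagen VI or coat fibrils, 10 were expressed, with a median log2 fold change of -0.35. Of the 10, 8 were lower and 2 higher, while 49.1% of all expressed genes were lower. Dpt, encoding dermatopontin, a small fibril-binding protein, was at 18.8 FPKM with PRP and 50.2 FPKM in the control (-1.37), and Matn2, encoding a filament-forming matrilin, had a ratio of 0.456 (-0.82). In the other direction, Tnc, encoding tenascin C, was at 167.3 and 108.5 FPKM (0.62), and Tnxb, encoding tenascin X, a ligand of collagens XII and XIV, had a log2 fold change of 0.14. The partners of the set thus held genes on both sides of 0.

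Among 1069 genes whose mean level reached 50 FPKM, those whose fold change was nearest to the collagen VI median of -0.98 were Gm24895 (342.9 against 671.3 FPKM, -0.97), mt-Tr (126.1 against 245.96 FPKM, -0.96), mt-Nd1 (822.0 against 1584 FPKM, -0.95), mt-Nd4l (1003.53 against 2049.80 FPKM, -1.03) and mt-Te (171.2 against 354.0 FPKM, -1.04). Likeness here is the distance between fold changes over 2 libraries. In the list were 4 genes of the mitochondrial genome, and mitochondrial genes held 2.06% of the summed FPKM with PRP and 3.70% in the control.

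The identity of the cells was checked on markers. Of 10 FAP markers 6 were expressed, including Pdgfra (19.8 FPKM with PRP, 27.95 in the control) and Ly6a (59.9 and 66.4), the genes of the antigens used in sorting. All 6 were lower with PRP, as were 20 of the 24 expressed collagen genes and 49.1% of all expressed genes. Their median was -0.39 on the log2 scale for the 6 markers, from Dpt, also in the matrix list above, at -1.37 to Ly6a at -0.15. The list summed to 190.3 FPKM against 298.4 FPKM. Pi16 and Lum were near 0 in both libraries. Tenocytes also express Col12a1 and Col14a1. Of 7 of their markers 3 were expressed, all lower (Comp -0.76, Thbs4 -0.46 and Mkx -0.02), with sums of 25.9 and 37.4 FPKM, while Scx and Tnmd stayed below 1 FPKM in both libraries. Of 8 markers each of pericytes with smooth muscle and of endothelium, 3 and 2 were expressed, with sums of 37.6 against 24.8 FPKM and 9.94 against 6.03 FPKM, so these sums were higher with PRP. Cnn1 (0.71), Myh11 (0.70), Kdr (1.06) and Tek (0.33) were higher and Des was lower (-0.17). The other 5 genes of the first list and 6 of the second had at most 0.974 and 0.540 FPKM in either library. They include Rgs5 (0.285 FPKM with PRP, 0.296 in the control), Pecam1 (0.188 and 0.047) and Cdh5 (0.095 and 0.098). Of 9 leukocyte markers 2 were expressed (11.6 against 11.2 FPKM), Lyz2 lower at -0.54 and Cd68 higher at 0.75, and of 8 satellite cell and myoblast markers 2 (8.24 against 10.6 FPKM), with Pax7 and Myog at 0 in both libraries. The Schwann cell list (1 of 7, 1.62 against 3.24 FPKM) and the platelet list (1 of 6, 1.51 against 2.67 FPKM, with Ppbp and Gp9 at 0) were low throughout. Of 9 adipocyte markers 7 were expressed, with 5 higher and 2 lower and a median of 0.06, from Lpl at -0.30 to Pparg at 0.36. The part of any of these differences in the levels of the collagen genes was not tested.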

How the data were processed

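The labels name TRIzol extraction and a stranded mRNA kit. Per the submitters' processing notes and the study's methods, reads were trimmed with fastp 0.23.4, aligned to mm10 with STAR 2.5.3a and counted with featureCounts. The authors turned these counts into FPKM, the unit of the deposited values. The annotation release, strand setting and FPKM tool are not given in the sources used here. FPKM multiplied by GENCODE M21 exon lengths gave whole reads (within 0.001) for 93.8% of 28160 genes above 0 and for all 8 members. Even numbers made up 79.3% (PRP) and 80.3% (control) of genes with up to 8 reads, so intervals used reads divided by 2. They are exact Clopper-Pearson for ratios, exact Poisson for levels and Woolf's for ratios of ratios. Fold changes used a pseudocount of 1 and a mean FPKM of at least 1. Motif and seed searches read RefSeq and GENCODE sequences. The seed search of Col12a1 is not reported here. The members, 18 gene lists and naming rule (members, the extreme 3 other collagens and 2 genes per list in each direction, and 5 genes nearest the collagen VI median) were chosen with earlier results of these data known. Marker genes and neighbours outside it are named for their role or position. Alternatives changed the pseudocount, filter, scaling, threshold, length and unit. No replicate test was possible. Python 3.11.15, NumPy 2.4.6, pandas 2.3.3, SciPy 1.17.1 and matplotlib 3.10.9 were used, and the scripts were tested on simulated data.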

Additional observations from a re-analysis of the deposited data

How the results depend on the processing

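No paired analysis was possible because 1 library stands for each group, and for the same reason none could be left out. The 6 abundant members kept their direction under all 5 changes of pseudocount and scaling (30 of 30 values), and no result reversed. A change of pseudocount cannot reverse a direction. The scalings left the median of all expressed genes between -0.023 and 0, beside 0.007 before. Such shifts are too small to reverse even the -0.10 of Col12a1, so the 30 of 30 is no check on direction. With a pseudocount of 5 the log2 fold changes were -1.12 (Col6a1), -0.71 (Col6a2), -0.93 (Col6a3), -0.49 (Col8a1) and -0.69 (Col16a1), with a members' median of -0.70, since a larger pseudocount shrinks every fold. With no filter on low values that median was -0.71, over 8 genes. Rescaling without mitochondrial and the 50 most abundant genes gave -1.09 (Col6a2), -1.03 (Col6a3) and -0.14 (Col12a1). The collagen VI median was -1.09 under that rescaling, -1.08 with a pseudocount of 0.1 and -1.07 with both libraries brought to a common sum. The other collagens' median was -0.029 with no filter and -0.67 for genes averaging 5 FPKM or more. Members at least 2-fold lower numbered 2 with a pseudocount of 0.1, 3 with a common sum, 3 without the mitochondrial and abundant genes, 5 at a 1.5-fold and 0 at a 4-fold threshold, and 2 by the plain ratio, which was added after seeing the data. The call of Col6a2 and Col6a3 at 2-fold thus rests on the scale. Genes at least 2-fold changed numbered 379, of which 70.7% were higher. They became 739 and 113 with pseudocounts of 0.1 and 5, 210 for genes averaging 5 FPKM or more, 596 with a common sum, 638 without the mitochondrial and abundant genes, 1436 at 1.5-fold (57.4% higher) and 26 at 4-fold (88.5% higher). Without those genes the members' share was 0.0667% (PRP) and 0.116% (control), and that of all collagens 0.636% and 0.884%. By fragments not divided by length, Col6a1, Col6a2 and Col6a3 made up 12.7%, 6.66% and 80.7% of collagen VI with PRP and 14.9%, 6.90% and 78.2% in the control. Per longest protein-coding transcript, added after seeing the data, they made up 24.7%, 11.4% and 63.8% with PRP, and Col6a1 and Col6a2 28.3% and 11.5% in the control. Intervals from read numbers in place of fragments left the ratios as they were and took the interval of Col15a1 below 1 (0.455 to 0.906), while that of Col14a1 still held 1. Depth limited Col14a1 and Col15a1.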

Other observations

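The expressed genes around the collagen VI loci gave values on both sides of 1. Within 200 kb of Col6a1 or Col6a2 on chromosome 10, Lss, which encodes lanosterol synthase of cholesterol synthesis and ends 38624 bases from Col6a2, was at 3.77 FPKM with PRP and 8.13 FPKM in the control, a ratio of 0.463 (0.425 to 0.505), close to the 0.469 of Col6a2. Also lower were 4930483K19Rik, the nearest at 33536 bases from Col6a2, with a ratio of 0.522 (0.390 to 0.694), 1700094J05Rik with 0.639 (0.512 to 0.796) and Pcnt with 0.782 (0.733 to 0.833). The span of 4930483K19Rik overlaps that of Lss on the opposite strand, and 1700094J05Rik lies inside that of Pcnt likewise. The strand setting of the counts is not known, so the values within each pair may not be independent. Pcbp3, at 35689 bases from Col6a1 on its other side, had a ratio of 1.10 (0.900 to 1.34), and Mcm3ap one of 1.05 (0.978 to 1.13). Near Col6a3, Cops8 had a ratio of 1.03 (0.922 to 1.15) and Lrrfip1 one of 1.26 (1.23 to 1.28). Inside the span of Col14a1 on the opposite strand, Gm18787 was at 8.93 and 2.54 FPKM, although Col14a1 itself was barely detected. These genes were chosen for their position, and no cause was tested.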
